A study of Homo sapiens with 7 samples.

Results

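The integrin and laminin genes were taken as all protein-coding genes of the RefSeq table of GRCh38 (hg38) whose symbol is ITGA, ITGB, LAMA, LAMB or LAMC followed by a number, or by a single capital letter with or without a number. This gave 38 of 19970 protein-coding genes on chromosomes 1 to 22 and X, of which 12 encode laminin chains and 26 carry integrin symbols. Among the 26, ITGBL1 encodes a secreted protein related to the beta subunits and no receptor subunit, and was kept because the symbol rule takes it. ITGA2B, whose symbol has a letter after a number, falls outside the rule. A gene's locus was its span with 50 kb on either side, and the peaks with their summit in a locus were used.

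Chromatin accessibility was measured by ATAC-seq, in which the Tn5 transposase inserts adapters into open DNA, in H1 cells, a widely used embryonic stem cell line of human origin. The cells were sampled as 2 libraries before differentiation (hESC), 2 at the definitive endoderm stage (hDE), 2 at the stage of the anterior foregut (hAFE) and 1 at that of the pharyngeal foregut (hPFE), the last being endoderm from which the thymus and parathyroid glands form. All libraries come from the same line, no genetic change or added agent is named in the labels for any group, and the purity of the cells at each stage is not given in the labels. The titles mark both hESC and both hDE libraries, but none of the later ones, as re-analysed, so that origin and stage cannot be told apart between hDE and hAFE, or between hPFE and hESC.

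Laminins are trimers of an alpha, a beta and a gamma chain, and with collagen IV they form the basement membrane on which epithelia such as the endoderm rest. Integrins are receptors built from an alpha and a beta subunit, which bind laminin, collagen, fibronectin or vitronectin outside the cell and link them to actin inside. Which chains and subunits a cell makes differs between germ layers and changes as an epithelium forms, and human pluripotent stem cells are commonly grown on laminin or vitronectin, which they hold through ITGA6, ITGAV, ITGB1 and ITGB5.

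Promoters of 4 genes are shown because their mean scaled height at the start differed most between stages among the genes that have a start in the RefSeq promoter table and a peak there in all 7 libraries. Without the scaling described below, LAMA2, ITGA1 and ITGA4 were still the top 3 and LAMB3 was not in the top 4. The table covers 250 bases before to 50 bases after the start in GRCh38.p14. LAMA2 lies at chr6:128882888-128883187 on the plus strand, ITGA4 at chr2:181457136-181457435 on the plus strand, ITGA1 at chr5:52787666-52787965 on the plus strand and LAMB3 at chr1:209652376-209652675 on the minus strand. Capitals mark the searched motifs, which are the TEAD motif in LAMA2 and, in LAMB3, the reverse complements of the E-box bound by ZEB and SNAI factors and, further on, of the SP and KLF motif.
LAMA2: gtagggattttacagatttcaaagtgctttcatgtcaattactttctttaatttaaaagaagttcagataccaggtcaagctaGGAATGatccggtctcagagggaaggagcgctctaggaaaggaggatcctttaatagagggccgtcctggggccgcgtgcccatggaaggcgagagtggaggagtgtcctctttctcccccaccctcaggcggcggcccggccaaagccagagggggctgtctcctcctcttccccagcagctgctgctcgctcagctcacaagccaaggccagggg
ITGA4: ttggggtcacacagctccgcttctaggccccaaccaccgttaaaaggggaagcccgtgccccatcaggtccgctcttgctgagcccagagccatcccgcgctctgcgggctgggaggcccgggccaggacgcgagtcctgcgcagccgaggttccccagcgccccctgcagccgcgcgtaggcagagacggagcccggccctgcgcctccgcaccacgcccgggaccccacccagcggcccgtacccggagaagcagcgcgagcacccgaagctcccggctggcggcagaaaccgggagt
ITGA1: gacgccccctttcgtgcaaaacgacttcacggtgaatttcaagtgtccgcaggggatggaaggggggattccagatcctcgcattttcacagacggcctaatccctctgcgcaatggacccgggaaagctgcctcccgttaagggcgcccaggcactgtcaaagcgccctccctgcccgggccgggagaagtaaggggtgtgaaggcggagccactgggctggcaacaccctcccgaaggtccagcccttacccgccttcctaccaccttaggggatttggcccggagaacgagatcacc
LAMB3: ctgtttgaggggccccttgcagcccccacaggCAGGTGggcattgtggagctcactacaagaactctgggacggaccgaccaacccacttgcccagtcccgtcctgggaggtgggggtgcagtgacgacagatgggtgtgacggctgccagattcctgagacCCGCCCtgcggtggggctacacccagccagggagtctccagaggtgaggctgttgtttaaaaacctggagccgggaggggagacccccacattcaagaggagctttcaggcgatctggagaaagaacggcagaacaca
The TEAD match of LAMA2 begins at base -167, counted from the start. The LAMB3 matches begin at bases -218 and -88, and the LAMB3 peak itself lies just upstream of the printed window. ITGA4 and ITGA1 held none of the 7 motifs searched on both strands. Over all 15811 promoters of the table with 300 bases, the share holding the motif was 11.7% for TEAD (GGAATG, 4 of the 26 members), 19.9% for the E-box (CACCTG, 7 of 26) and 58.5% for SP and KLF (GGGCGG, 15 of 26). The AP-1 motif (TGANTCA) was held by 2 of 26 members, ITGA5 and LAMA3, against 5.76% of all promoters, and the SOX motif (ACAAAG) by 2 of 26, ITGB7 and LAMB4, against 12.8%. The GATA motif (AGATAA) was held by LAMA4 alone among the members, against 7.55% of all promoters, and the FOX motif (TGTTTAC) by none of 26, against 2.62%. No motif overlapped another in the printed sequences. These letters describe the sequence, and binding was not measured.

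Between 1082 and 1258 deposited peaks per library had their summit in a locus. Overlapping peaks were merged into regions, and the 50000 regions of a library with the highest deposited −log10 p were called strict. Strict regions of the 7 libraries merged to 129718 regions, of which 496 lay at the 38 genes: 30 within 1 kb of a start, 216 elsewhere inside a gene span and 250 outside. Of the 496, 64 lay within 1 kb of the end of another gene and 96 inside another gene, so that a region at a locus is not assigned to its gene by function, and 26 lay in more than 1 locus. A region was gained at a stage where it was strict in all its libraries and overlapped no deposited peak of the earlier stage, and lost in the reverse case. Accessibility of a region is given as the height, the summit pileup recovered from the peak values over the genome-wide background of its library, divided by the median height of the 14587 regions strict in all 7 libraries. A scaled height of 1 therefore equals a typical constitutively open region. The background, which grows with depth, ran from 2.11 to 7.94 cut sites, and the median height used for scaling ran from 21.6 in hPFE to 69.4 in hAFE replicate 1. With 2 libraries against 2 the smallest two-sided exact p is 0.333, and hPFE has 1 library, so that no p-value is given and the spread between replicates is shown instead.

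The stage genes chosen as a check of the labels gave strict regions that followed them in part. POU5F1, NANOG and SOX2 together had 15 and 24 strict regions at hESC, 10 and 3 at hDE, 12 and 11 at hAFE and 9 at hPFE. The 6 genes of definitive endoderm (SOX17, FOXA2, GATA4, GATA6, EOMES and CXCR4) had 23 and 23 at hESC, 45 and 37 at hDE, 30 and 27 at hAFE and 22 at hPFE. The 6 foregut and pharyngeal genes (PAX9, PAX1, TBX1, EYA1, HOXA3 and NKX2-3) did not separate the stages, with 27 and 26, 38 and 26, 35 and 36, and 34. These loci thus did not tell hPFE from hAFE. Markers of other cells were also counted: the 6 mesenchyme genes had 22 and 20 strict regions at hESC, 25 and 25 at hDE, 19 and 22 at hAFE and 18 at hPFE, and the 4 endothelium genes 13 and 8, 15 and 18, 12 and 17, and 9.

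Strict regions at the integrin and laminin genes numbered 205 and 218 at hESC, 219 and 196 at hDE, 234 and 234 at hAFE and 225 at hPFE. Every library has the same number of strict regions genome-wide, so that totals near each other follow in part from that limit. With strict set instead by a height of at least 10 times background, they numbered 176 and 304 at hESC, 184 and 376 at hDE, 369 and 253 at hAFE and 148 at hPFE, with replicates of a stage far apart. Of the 496 regions, 80 were strict in all 7 libraries, which is 16.1% (95% exact binomial interval 13.0 to 19.7%) against 11.2% of all regions. They lay in the loci of 37 of the 38 genes, all but ITGAX, and a locus takes in parts of neighbouring genes. The ITGAL locus held 5 of them, though no library had a peak within 1 kb of the ITGAL span end. How many loci over all genes hold such a region was not counted. Intervals cover counting error only, and neighbouring regions are not independent.

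**Figure D1:**
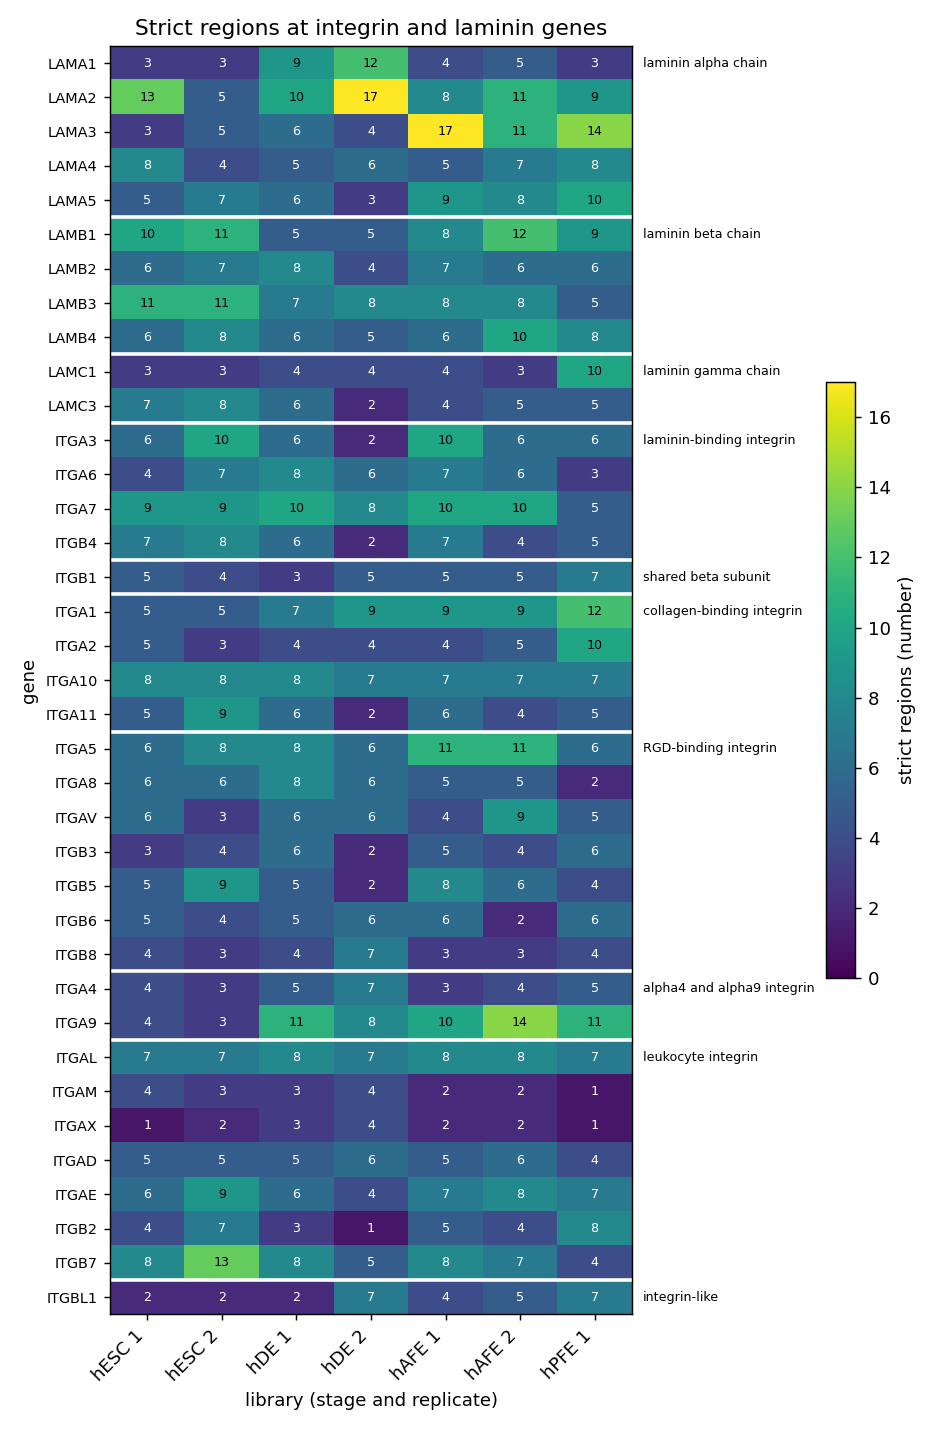
Number of strict regions at 37 of the 38 genes (rows, grouped by role) in each of the 7 libraries (columns, stage and replicate), with the number printed in each cell and given by colour. LAMA1 reaches 9 and 12 in hDE, LAMA3 17 and 11 in hAFE and 14 in hPFE, and LAMC1 and ITGA2 10 each in hPFE.

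In definitive endoderm against stem cells, 29 of the 496 regions were gained, at 19 genes, and 3 were lost, at 3 genes. The gained share was 5.85% (3.95 to 8.29%) against 5.43% of all regions, and the lost share 0.605% (0.125 to 1.76%) against 1.15% of all regions. Both shares of the loci lie near those of all regions. How many of all genes had a gained or lost region was not counted, so no share stands beside these gene counts or the later ones. A locus with more regions holds a call more easily, and regions per gene ran from 6 at ITGAM and ITGAX to 35 at LAMA2. LAMA1 had 4 gained regions, the most of any member, ahead of LAMA2 and ITGA4 with 3 each and ITGA9 and LAMC1 with 2 each. Counted with single libraries, each pair of an hDE and an hESC library had 36 to 61 regions strict in hDE with no peak in hESC, and 15 to 20 the other way round, while replicates of a stage differed by 1 to 8 regions. Without hDE replicate 1 the gained share was 9.68% against 9.96% of all regions.

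LAMA1 encodes the alpha chain of the laminin made first in the embryo, which it forms with LAMB1 and LAMC1. Its 16 regions included 3 and 3 strict ones at hESC, 9 and 12 at hDE, 4 and 5 at hAFE and 3 at hPFE, so that the hDE libraries stood above all others. The gained region with the highest summit, chr18:7147096-7148109, lies 29840 bp beyond the upper end of the gene, the end with an open region. It had a scaled height of 1.14 in each hDE library and no peak in either hESC library, followed by 0.71 and 0.49 in hAFE and no peak in hPFE. A neighbour at chr18:7130987-7131543, 13568 bp outside, had 0.56 and 0.87 in hDE and no peak at any other stage. The region between them, chr18:7132454-7133549, had no peak at hESC, 0.52 and 0.66 at hDE, 0.40 and 0.27 at hAFE and 0.55 at hPFE. These 3 neighbours are shown because each was called gained in hDE, and they differed at the later stages. The remaining gained region, chr18:7111029-7111628, lies inside the gene 6425 bp from that end, with 0.55 and 0.78 in hDE and no peak in hESC. The open end of the LAMA1 span was accessible throughout, at 0.84 and 0.75 at hESC, 0.85 and 0.62 at hDE, 0.86 and 0.88 at hAFE and 0.75 at hPFE. The hAFE values lie above the others, by little over hDE replicate 1, and the other stages overlap. With a flank of 10 kb, 1 of the 4 gained regions is left, and without hESC replicate 2 the count is 7.

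LAMA2, the chain of muscle basement membrane, has the longest span of all members (633 kb) and the most regions (35). Its strict regions numbered 13 and 5 at hESC, 10 and 17 at hDE, 8 and 11 at hAFE and 9 at hPFE, so that replicates of a stage differed as much as stages did. Its strongest gained region, chr6:128945672-128946403, 62919 bp inside the gene, had 0.34 and 1.15 in hDE against no peak in hESC, with 0.22 and 0.26 in hAFE and no peak in hPFE. LAMA4, the chain of vessel walls, and LAMA5, the chain of most adult epithelial basement membranes, gained no region in hDE.

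ITGA4 pairs with ITGB1 or ITGB7 and binds fibronectin and VCAM1, and ITGA9 is its closest relative. ITGA4's strongest gained region, chr2:181569305-181569834, lies 30673 bp outside the gene and inside CERKL, with 0.44 and 0.95 in hDE against no peak in hESC. It had no peak in hAFE or hPFE either. ITGA9 had 4 and 3 strict regions at hESC, 11 and 8 at hDE, 10 and 14 at hAFE and 11 at hPFE, so that every later library stood above the hESC libraries. Its strongest gained region, chr3:37504369-37505259, 52608 bp inside the gene, had 0.88 and 1.4 in hDE against no peak in hESC, and stayed open at 0.49 and 0.33 in hAFE and 0.55 in hPFE. It and the LAMA1 region at chr18:7132454-7133549 are the 2 of the 29 gained regions that were strict in hPFE. LAMC1, the gamma chain of most laminins, gained a region 24539 bp outside the gene at chr1:182998203-182999222, with 0.53 and 0.79 in hDE against no peak in hESC. That LAMC1 region had no peak in hAFE replicate 1, 0.08 in hAFE replicate 2 and no peak in hPFE.

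ITGAV, the alpha subunit of the vitronectin receptors, had a single gained region in hDE, chr2:186554740-186555970, 34480 bp outside the gene. It reached 0.49 and 1.22 in hDE and had no peak in the other 5 libraries. The ITGAX and ITGAD region chr16:31406139-31406960 behaved the same way, with 0.89 and 1.26 in hDE and no peak elsewhere. Both genes encode leukocyte subunits, and the region lies inside ITGAD. In all, 8 of the 496 regions were strict in both hDE libraries and absent from all others, 1.61% against 1.99% of all regions.

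The 3 regions lost in hDE lie at beta subunits that pair with ITGAV. At ITGB6, a subunit of epithelia, chr2:160055245-160056156 lies 44072 bp outside the gene and inside PLA2R1 and had no peak in hDE, against 0.69 and 0.68 in hESC. It had 0.12 and 0.17 in hAFE and no peak in hPFE. At ITGB8, which with ITGAV releases TGF-beta from its latent form, chr7:20340688-20341225 lies 10106 bp inside the gene and had no peak in hDE, against 0.47 and 0.34 in hESC. At ITGB5, the vitronectin partner of ITGAV, chr3:124826536-124827031 lies 74521 bp from the start inside the gene and had no peak in hDE, against 0.35 and 0.49 in hESC. It had no peak in hAFE and 0.24 in hPFE. Leaving out hESC replicate 2 brought the lost share to 2.62% against 3.26% of all regions, and leaving out hESC replicate 1 to 2.22% against 3.04%.

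What became of the 29 regions gained in hDE was followed in the later libraries. In both hAFE libraries 6 were strict, 20.7% against 9.99% of all regions gained in hDE, and 8 were absent, 27.6% against 40.7%. In hPFE 6 had a peak, 20.7% against 23.7%. These shares rest on few regions.

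In anterior foregut endoderm against definitive endoderm, 16 regions were gained, at 13 genes, and 14 were lost, at 12 genes. The gained share was 3.23% (1.85 to 5.19%) against 2.05% of all regions, and the lost share 2.82% (1.55 to 4.69%) against 3.2% of all regions. All regions thus had fewer gains than losses, and the loci about as many of each. Most gains lay at LAMA3 and ITGA9 with 3 each and ITGA6 with 2, and most losses at LAMA2 with 3 and at ITGAX and LAMA1 with 2 each. These loci hold unlike numbers of regions, 25 at LAMA3, 24 at ITGA9, 13 at ITGA6, 35 at LAMA2, 6 at ITGAX and 16 at LAMA1. LAMA2 had 7 losses without hDE replicate 1, and LAMA1 had 4 without hAFE replicate 1. With single libraries 27 to 36 regions opened and 26 to 46 closed. Without hAFE replicate 1 both shares were 5.44%, against 4.36% of all regions gained and 4.51% lost, so that the lost share lay above that of all regions. Without hDE replicate 1 the lost share was 5.85% against 7.09%.

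LAMA3 encodes the alpha chain of the laminin that anchors stratified epithelia, together with LAMB3, and the receptor of that laminin is the pair of ITGA6 and ITGB4. LAMA3 had 3 and 5 strict regions at hESC, 6 and 4 at hDE, 17 and 11 at hAFE and 14 at hPFE, and the foregut libraries did not overlap with the earlier ones. The earlier libraries are the re-analysed ones, so that origin and stage cannot be told apart here. The LAMA3 region chr18:23651033-23651943 lies 37961 bp outside the gene and inside ANKRD29, with 0.45 and 0.36 in hAFE against no peak in hDE, and 0.66 in hPFE. A region inside the gene, chr18:23825757-23826314, had 0.31 and 0.27 in hAFE against no peak in hDE, and 0.32 in hPFE. The highest of the 3, chr18:23982406-23983039, lies 27745 bp outside at the other side, with 0.69 and 0.33 in hAFE against no peak in hDE. It had weak peaks of 0.25 and 0.19 in hESC and 0.24 in hPFE. A further region that misses the call because weak peaks were present before, chr18:23994312-23994897, lies 39547 bp outside LAMA3 and inside TTC39C, with 1.22 and 0.92 in hAFE against 0.16 and 0.20 in hDE, and 0.33 in hPFE. The count of 3 was 6 without hDE replicate 2 and 5 without hAFE replicate 2. With 25000 strict regions per library it was 0, with 100000 it was 4, and with a flank of 10 kb it was 1.

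The start of LAMA3 given by the promoter table, inside the span, had no peak in 5 of the libraries, with 0.16 in hESC replicate 2 and 0.24 in hPFE. The lower end of the span was open in every library, at 0.49 and 0.45 at hESC, 0.29 and 0.43 at hDE, 0.46 and 0.36 at hAFE and 0.79 at hPFE. The 3 LAMA3 regions called gained in hAFE thus lay away from both points.

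ITGA6 and ITGB4 gained regions at the same stage as LAMA3. ITGA6 gained chr2:172440772-172441172, 13686 bp inside the gene, with 0.61 and 0.24 in hAFE against no peak in hDE, and 0.17 in hPFE. It also gained chr2:172420042-172420470, 7025 bp upstream, with 0.38 and 0.24 in hAFE against no peak in hDE, and no peak in hPFE. ITGB4's region chr17:75692616-75693130, 28694 bp outside the gene and inside SAP30BP, had 0.62 and 0.45 in hAFE and no peak in any other library. With 25000 strict regions per library the ITGA6 count of 2 was 0. With a flank of 10 kb the ITGB4 count of 1 was 0. Strict regions at ITGB4 numbered 7 and 8 at hESC, 6 and 2 at hDE, 7 and 4 at hAFE and 5 at hPFE. LAMB3 gained no region in hAFE against hDE and lost 1. Its strict regions numbered 11 and 11 at hESC, 7 and 8 at hDE, 8 and 8 at hAFE and 5 at hPFE. A LAMB3 region inside the gene that misses the call, chr1:209642861-209643588, had 0.74 and 0.44 in hAFE and 0.34 in hPFE. It had no peak in hDE replicate 1 and 0.10 in hDE replicate 2.

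ITGA9 gained 3 further regions in hAFE, all inside the gene. The highest, chr3:37588832-37589218, had 0.51 and 0.42 in hAFE against no peak in hDE, and no peak in hPFE. ITGA1, the alpha subunit of a collagen receptor, gained a region that also lies at ITGA2, chr5:52997177-52997829, with 0.29 and 0.74 in hAFE against no peak in hDE, and 0.34 in hPFE. ITGA5, the fibronectin receptor subunit, gained chr12:54428064-54428693, 9247 bp outside the gene, with 0.36 and 0.39 in hAFE against no peak in hDE. It had 0.24 and 0.28 in hESC and no peak in hPFE. A peak in at least 1 hESC library was present at 8 of the 16 gained regions, 50% against 37.5% of all regions gained in hAFE.

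LAMA2's chr6:129565291-129565959, 49014 bp outside the gene and 10552 bp from the nearest end of ARHGAP18, had no peak in hAFE, against 0.60 and 1.21 in hDE, with weak peaks of 0.20 and 0.12 in hESC. The losses also included regions gained in hDE: the ITGAV region and the ITGAX and ITGAD region described above had no peak in hAFE, nor had LAMA1's chr18:7130987-7131543. Regions strict in both hAFE libraries and absent from all others numbered 3, 0.605% against 0.596% of all regions, and none of the 496 regions was strict in both hESC libraries and absent from all others, against 0.611% of all regions.

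**Figure D2:**
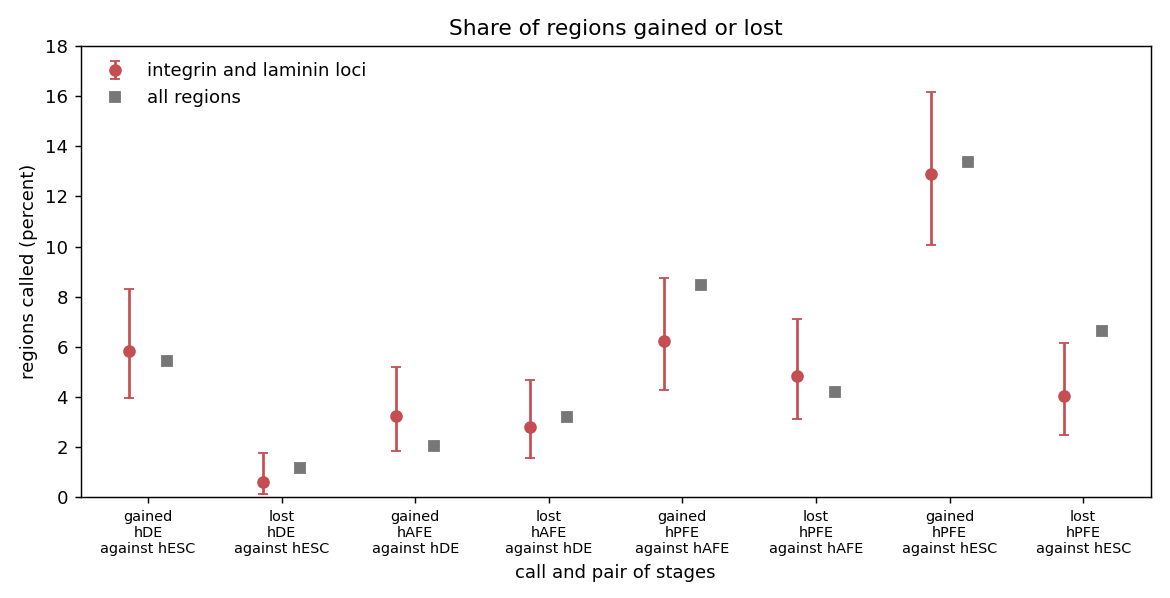
Percent of regions gained or lost in each of the 4 pairs of stages, for the 496 regions at integrin and laminin genes (circles, with 95% exact binomial intervals) and, to their right, for all 129718 regions (squares). The square lies outside the interval for losses of hPFE against hESC, 4.03% at the loci against 6.62% of all regions.

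**Figure D3:**
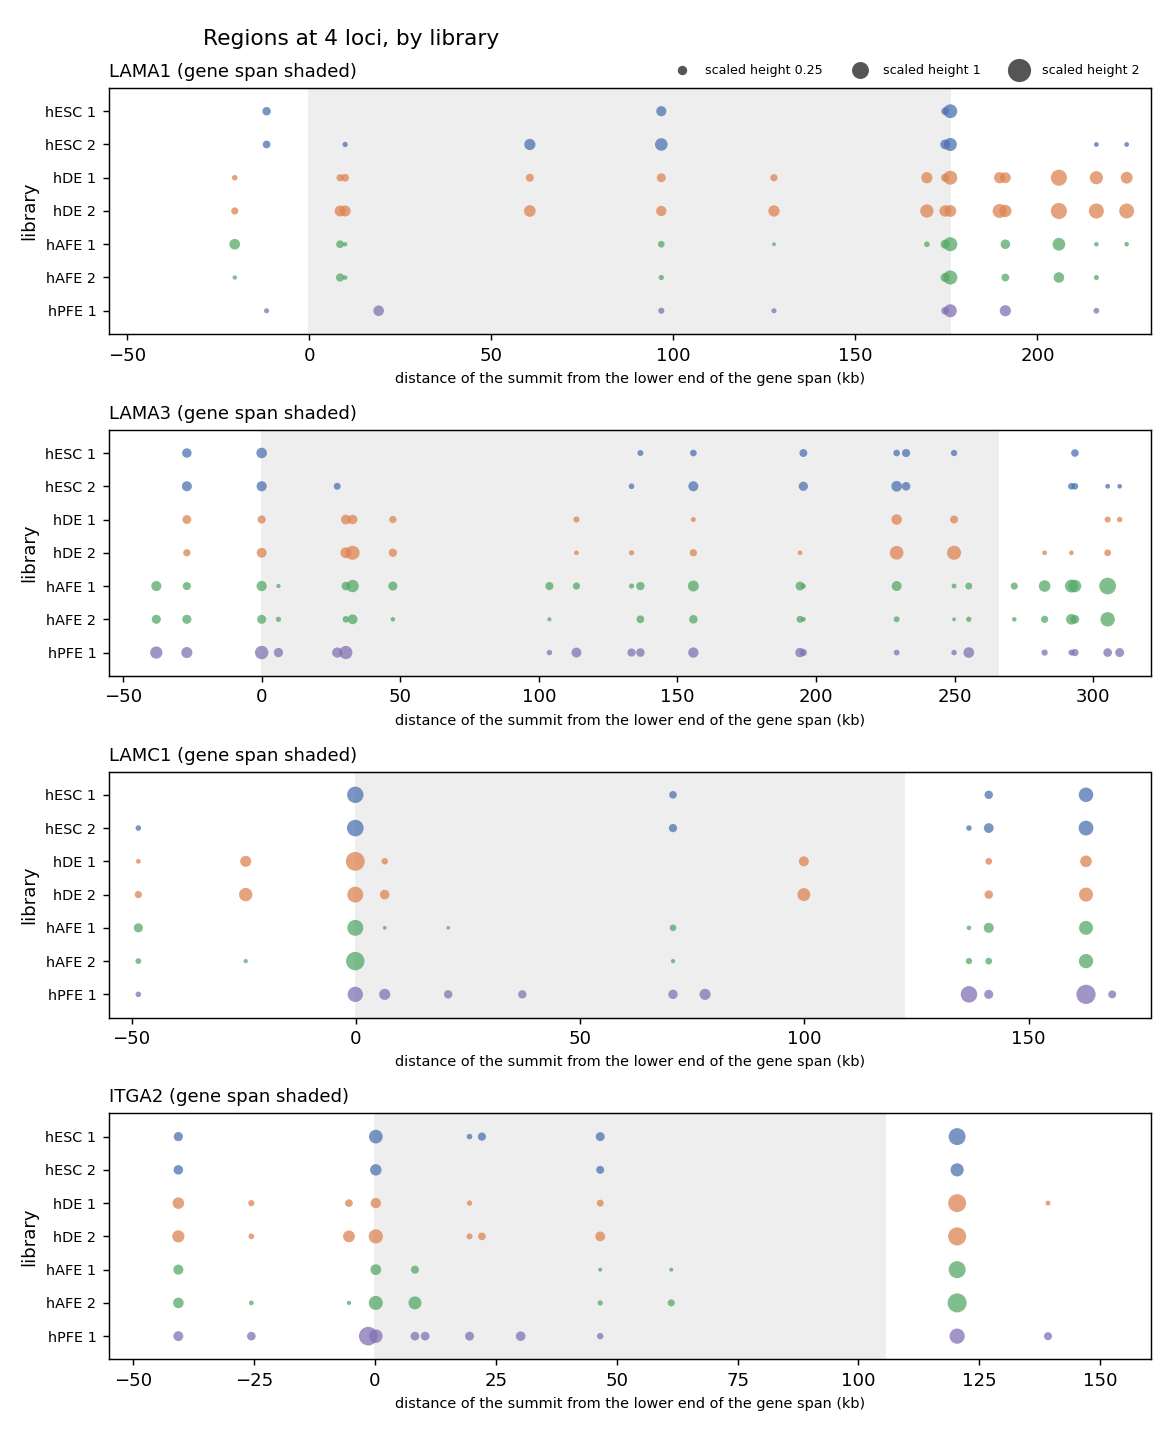
Regions at LAMA1, LAMA3, LAMC1 and ITGA2, with the distance of the summit from the lower end of the gene span in kb on the x axis and the 7 libraries on the y axis. The area of a point is its scaled height, the gene span is shaded and colours are stages; the hDE rows of LAMA1 carry points beyond the upper end of the span, and the hPFE row of ITGA2 a point of 1.52 just outside the lower end.

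In pharyngeal foregut endoderm against anterior foregut endoderm, 31 regions were gained, at 19 genes, and 24 were lost, at 20 genes. The gained share was 6.25% (4.29 to 8.75%) against 8.45% of all regions, and the lost share 4.84% (3.12 to 7.11%) against 4.18% of all regions. The hPFE stage has a single library, so that a region of that library alone cannot be told apart from a region of the stage. ITGA2 had 5 gained regions, and ITGA1, LAMA2, ITGB6 and LAMC1 had 3 each. With single libraries 43 regions opened in hPFE against either hAFE library, and 36 to 40 closed. The lost share was 7.26% against 7.73% of all regions without hAFE replicate 1, and 8.06% against 8.69% without hAFE replicate 2, so that it lay below that of all regions in both cases.

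ITGA2 encodes the alpha subunit of the main collagen receptor of platelets and epithelia. It had 5 and 3 strict regions at hESC, 4 and 4 at hDE, 4 and 5 at hAFE and 10 at hPFE, the last above all others. Its region chr5:52987665-52988310, which is also within 50 kb of ITGA1, lies 1382 bp upstream of the ITGA2 start and had 1.52 in hPFE and no peak in any of the other 6 libraries. It is the highest of the 20 regions at the loci that were strict in hPFE and absent from all others, which are 4.03% against 6.24% of all regions. The ITGA2 start next to it was open throughout, at 0.82 and 0.57 at hESC, 0.47 and 0.89 at hDE, 0.51 and 0.86 at hAFE and 0.81 at hPFE. The other gained regions of ITGA2 were weaker, from 0.29 to 0.40 in hPFE, and 1 of the 5 is left when 25000 regions per library are strict.

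LAMC1 had 3 and 3 strict regions at hESC, 4 and 4 at hDE, 4 and 3 at hAFE and 10 at hPFE. Its region chr1:183101133-183101610, 77866 bp inside the gene, had 0.54 in hPFE and no peak elsewhere. The 2 other gained regions had 0.30 and 0.28. At 14532 bp outside LAMC1, chr1:183159953-183160318 reached 1.20 in hPFE against 0.09 and 0.18 in hAFE, which misses the call. Without hAFE replicate 1 the LAMC1 count is 5. With 25000 strict regions per library it is 1, and with 100000 it is 7. With strict set by a height of at least 10 times background it is 1. ITGB6 gained 3 regions beyond the span end that holds its start, 23960 to 29546 bp outside the gene, with 0.52, 0.55 and 0.40 in hPFE and no peak in any other library. Nearer the gene on the same side lay ITGB6 regions of other stages. There chr2:160208151-160209112 had no peak in hAFE, against 0.57 and 0.89 in hDE. The region chr2:160210667-160211187, 10555 bp outside, had 0.67 and 0.73 at hESC, 0.34 and 0.66 at hDE, 0.38 and 0.23 at hAFE and no peak in hPFE. The count of 3 gained ITGB6 regions is 0 with 25000 strict regions per library and 6 with 100000. With a flank of 10 kb it is 0.

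ITGA11, a collagen receptor subunit of fibroblasts, gained chr15:68271861-68272380, 24400 bp outside the gene, with 0.78 in hPFE against no peak in hAFE, and 0.20 and 0.21 in hESC. LAMA1's single gained region in hPFE, chr18:6960643-6961051 inside the gene, had 0.49 and no peak elsewhere. ITGB1, the beta subunit shared by most of the receptors here, gained chr10:32910079-32910506 inside the gene with 0.38 in hPFE and no peak elsewhere. LAMA2 gained 3 regions, of which chr6:129187052-129187663 was the highest at 0.57 in hPFE against no peak in hAFE.

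Losses in hPFE were spread thinly, with 3 at LAMA2 and 2 each at ITGA4, ITGA7, ITGB8 and ITGA9. At ITGA4, chr2:181554498-181554905 lies 15753 bp outside the gene and inside CERKL and had no peak in hPFE, against 0.88 and 0.84 in hAFE. Close by, chr2:181552823-181553379 showed the opposite, with 1.14 in hPFE against 0.12 and 0.12 in hAFE. At ITGA7, the muscle laminin receptor, chr12:55717999-55718504 had no peak in hPFE, against 0.70 and 0.51 in hAFE, and lies inside BLOC1S1. At ITGB8, chr7:20304268-20304777 lies 25201 bp outside the gene and had no peak in hPFE, against 0.64 and 0.53 in hAFE. Of the 24 lost regions, 3 had been gained in hDE and 6 in hAFE, 12.5% against 6.01% and 25% against 19.9% of all regions lost in hPFE.

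In pharyngeal foregut endoderm against stem cells, the ends of the series, 64 regions were gained, at 24 genes, and 20 were lost, at 18 genes. The gained share was 12.9% (10.1 to 16.2%) against 13.4% of all regions, and the lost share 4.03% (2.48 to 6.16%) against 6.62% of all regions. This pair shares the hPFE library with the preceding one. The lost share was 7.86% against 12.2% of all regions without hESC replicate 1, and 6.85% against 12.3% without hESC replicate 2. Of the 186 regions at laminin chains 27 were gained and 9 were lost, which is 14.5% and 4.84%, against the 13.4% and 6.62% of all regions. ITGA2, ITGBL1 and LAMA3 had 6 gains each, LAMC1 5 and ITGA1 4. Without hESC replicate 2 LAMA3 had 10, against 6 each at ITGA2, ITGBL1 and LAMC1.

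ITGBL1 had 2 and 2 strict regions at hESC, 2 and 7 at hDE, 4 and 5 at hAFE and 7 at hPFE. Beside its lower end, chr13:101455873-101456284 had 0.89 in hPFE against no peak in hESC, with 0.12 and 0.16 in hAFE. Its neighbour chr13:101454700-101455432 had 0.84 in hPFE against no peak in hESC, with 0.34 and 0.33 in hAFE and no peak in hDE. The ITGBL1 start itself had a peak only in hESC replicate 1 and hDE replicate 1. At ITGB3, the beta subunit of platelet and vitronectin receptors, chr17:47279092-47279740 inside the gene had 1.34 in hPFE against no peak in hESC, with no peak in hAFE replicate 1 and 0.09 in hAFE replicate 2.

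LAMA5 and ITGB2 also carried regions gained in hPFE. At LAMA5, chr20:62349959-62350381 inside the gene had 0.84 in hPFE against no peak in hESC, and chr20:62378009-62378473, 10972 bp outside, had 0.78 in hPFE against no peak in hESC. At ITGB2, the shared leukocyte beta subunit, chr21:44869885-44870199 had 1.03 in hPFE against no peak in hESC, with 0.66 and 0.28 in hAFE, and lies inside PTTG1IP. ITGB2 is also one of the blood genes chosen as a check, which together had 20 and 24 strict regions at hESC, 18 and 12 at hDE, 22 and 22 at hAFE and 31 at hPFE. Of these the transcription factor gene RUNX1 alone had 4 and 9, 7 and 5, 9 and 7, and 16. The part of blood cells in the ITGB2 values was not tested.

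LAMB1, LAMB3, LAMB4, ITGA8 and ITGB6 lost 2 regions each in hPFE against hESC, the most of any member. LAMB1, the beta chain of most laminins, and its neighbour LAMB4 share chr7:108001303-108001762, 1675 bp inside LAMB1 from its start, which had no peak in hPFE, against 0.80 and 0.64 in hESC, with 0.43 and 0.51 at hDE and 0.32 and 0.42 at hAFE. LAMB1 also lost chr7:107933582-107933968 inside the gene, which had no peak in hPFE, against 0.49 and 0.47 in hESC. LAMB3 lost chr1:209590497-209590810, inside CAMK1G, and chr1:209646202-209646897, inside LAMB3, with no peak in hPFE, against 0.49 and 0.57, and 0.33 and 0.38, in hESC. ITGA8, the nephronectin receptor subunit of mesenchyme, lost chr10:15744250-15744768, 24506 bp outside the gene, with no peak in hPFE, against 0.57 and 0.48 in hESC, and its strict regions numbered 2 in hPFE, against 6 and 6 in hESC. ITGB6 lost the upstream region chr2:160210667-160211187 given above and the one inside PLA2R1. ITGB1 lost chr10:32893453-32893822, 6692 bp outside the gene, with no peak in hPFE, against 0.65 and 0.74 in hESC.

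Most of the points taken as starts had a peak in every library. The promoter table gives a start for 26 of the 38 genes. For the other 12, among them LAMA1 and ITGB4, the stronger end of the span was used, a choice that favours a peak. A peak within 1 kb was present in all 7 libraries at 26 of the 38 points, in some at 10 and in none at 2, ITGAL and LAMB4. All libraries of hESC and hDE had a peak at 28 of the 38 points, against 14344 of the 19970 protein-coding genes. For hAFE and hPFE it was 26 of the 38 points, against 14617 genes. A start was called different where the lowest scaled height of a stage was at least 1.5 times the highest of the other, over all genes with a peak in every library of both stages.

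LAMA2 showed the widest range of the starts. Its scaled heights were 1.55 and 1.48 at hESC, 1.43 and 2.17 at hDE, 0.56 and 0.59 at hAFE and 0.36 at hPFE, and the foregut values did not overlap with the earlier ones. The earlier libraries are the re-analysed ones, so that origin and stage cannot be told apart here. LAMA2 was the single member called lower among 27 in hAFE against hDE, where 2.17% of all starts were called lower and 0.979% higher, the members with none higher. Without scaling that call was not made, and 4 of 27 members, LAMC1, ITGAV, ITGB4 and LAMA1, were called higher, against 14.9% of all starts, while division by the median of each library's own strict regions kept it. In hPFE against hAFE, 2 of 26 members were called lower, LAMA2 and ITGA1, against 3.39% of all starts. In hPFE against hESC, 3 of 27 were called lower, LAMA2, ITGA1 and ITGA4, against 8.18% of all starts. These genes were called lower under all 3 scalings, but without scaling so were many others. The unscaled counts were 17 of 26 members in hPFE against hAFE, against 74.6% of all starts, and 8 of 27 in hPFE against hESC, against 22.1%.

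ITGA1 had 1.29 and 0.82 at hESC, 0.94 and 1.42 at hDE, 0.81 and 1.5 at hAFE and 0.44 at hPFE. Its replicates differ widely, and hPFE alone lies below them all. ITGA1 and PELO, a ribosome rescue factor gene, have spans that begin at the same base, so that their starts cannot be told apart. ITGA4 had 2.27 and 1.15 at hESC, 0.88 and 1.16 at hDE, 0.60 and 1.03 at hAFE and 0.56 at hPFE. LAMB3 had 0.71 and 0.70 at hESC, 0.75 and 0.86 at hDE, 0.56 and 0.23 at hAFE and 0.50 at hPFE, and was called in no pair under this scaling.

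In hDE against hESC, ITGB5 was called lower, 1 of 28 members against 4.5% of all starts, and no member was called higher against 0.913% of all starts. Its start had 0.14 and 0.10 in hDE against 0.43 and 0.29 in hESC, with 0.12 in hAFE replicate 1 and no peak in hAFE replicate 2 or hPFE. The call was made under all 3 scalings. Its partner ITGAV had 2.39 and 1.75 at hESC, 1.69 and 1.67 at hDE, 1.86 and 3.09 at hAFE and 2.05 at hPFE, and ITGB1 had 1.73 and 1.70, 2.15 and 2.21, 1.62 and 2.36, and 1.82. ITGAV and ITGB1 were thus among the most open starts at every stage.

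In hPFE against hAFE, 5 of 26 members were called higher, among them LAMC3, ITGA5, ITGB4 and LAMA5, against 9.67% of all starts. In hPFE against hESC, 3 of 27 were called higher, among them ITGB4 and ITGB2, against 4.55% of all starts. LAMC3, a laminin gamma chain, had 0.44 in hPFE against 0.23 and 0.14 in hAFE, with 0.65 and 0.64 in hESC. ITGB4, which anchors epithelia at hemidesmosomes, had 1.29 in hPFE against 0.85 and 0.51 in hAFE, with 0.65 and 0.65 at hESC and 0.45 and 0.27 at hDE. LAMA5 had 1.02 in hPFE against 0.64 and 0.65 in hAFE. ITGA5 had 0.54 in hPFE against 0.29 and 0.32 in hAFE, and 0.47 and 0.37 in hESC. These directions depend on the scaling. Without it the median ratio of all starts of hPFE against hAFE was 0.396, against 1.06 with it, and the ratios of the 4 genes named for hAFE were all below 1, from 0.593 at LAMA5 to 0.840 at LAMC3. With each library's own strict median only LAMC3 of the 4 was called. In hPFE against hESC, no member of 27 was called higher without scaling, against 0.411% of all starts, and the ratios were 1.35 at ITGB4 and 1.42 at ITGB2.

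Of the starts always given, those of LAMB1, LAMC1, ITGA6, LAMA1, ITGAV and ITGB1 were called in no pair under this scaling. Without scaling all of these were called lower in hPFE against hAFE, and LAMC1, ITGAV and LAMA1 higher in hAFE against hDE. LAMB1 had 0.75 and 0.60 at hESC, 1.08 and 1.09 at hDE, 0.80 and 1.02 at hAFE and 0.68 at hPFE. LAMC1 had 1.18 and 1.21, 1.56 and 1.11, 1.12 and 1.49, and 1.02 over the same stages. ITGA6 was the steadiest of these, at 0.96 and 0.78, 0.89 and 0.86, 0.84 and 0.90, and 0.96. LAMB1, LAMC1 and ITGA6 thus had a peak within 1 kb of the start in every library, as had the stronger span end taken for LAMA1. With a window of 250 bp the ITGA6 start had a peak only in hESC replicate 2.

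**Figure D4:**
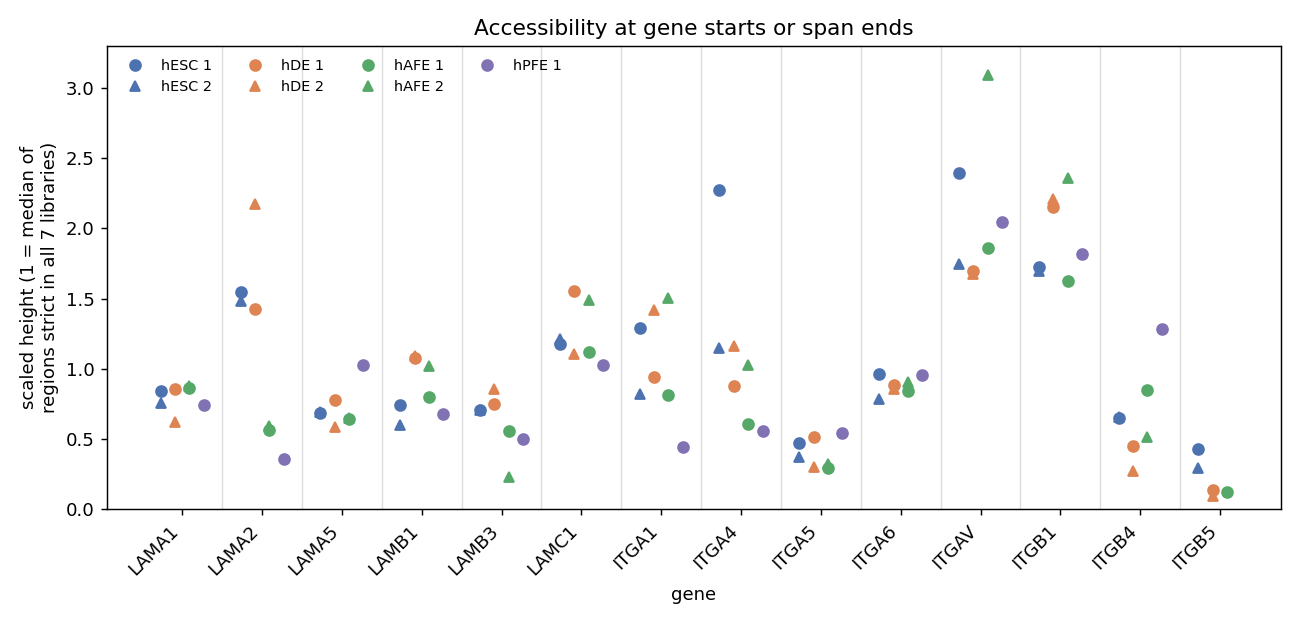
Scaled height of the peak within 1 kb of the start, or of the stronger span end, for 14 genes (x axis) in each library (colour is the stage in the order hESC, hDE, hAFE, hPFE from left to right, circles are replicate 1 and triangles replicate 2). A value of 1 on the y axis is the median of the 14587 regions strict in all libraries. LAMA2 lies at 1.43 to 2.17 in hESC and hDE, the re-analysed libraries, and at 0.36 to 0.59 in hAFE and hPFE.

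Leukocyte subunits form receptors of blood cells, and their starts or span ends were mostly weak or closed. ITGAL had no peak in any library, ITGAM had 0.10 in hDE replicate 1 alone, ITGAD had 0.10 in hAFE replicate 2 alone, and ITGB7 at most 0.20. Strict regions at the ITGAM locus numbered 4 and 3 at hESC, 3 and 4 at hDE, 2 and 2 at hAFE and 1 at hPFE. ITGAX, ITGB2 and ITGAE had higher values. The upper end of the ITGAX span, which the table does not mark as a start, had 0.41 and 0.44 at hESC, 0.39 and 0.62 at hDE and 0.29 and 0.32 at hAFE, and no peak in hPFE. With a window of 250 bp the lower end of ITGAX was the stronger one, with a peak in 3 libraries. The upper end of the ITGB2 span had 0.29 and 0.19 at hESC, no peak at hDE, 0.14 in hAFE replicate 1, no peak in hAFE replicate 2, and 0.48 in hPFE. The ITGAE start had 0.27 in hESC replicate 1, 0.14 in hDE replicate 1, 0.06 and 0.07 at hAFE, and no peak in the remaining libraries.

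Genes of the same pathway from lists outside the symbol rule were counted with the same windows. The 15 basement membrane partners, such as collagen IV, nidogen and perlecan genes, had 6 of 188 regions gained and 0 lost in hDE against hESC, 3 gained and 2 lost in hAFE against hDE, and 12 gained and 13 lost in hPFE against hAFE. COL4A1, a collagen IV chain, took 4 of the 6 gains of hDE, and COL4A6 lost 3 regions in hPFE. The 19 other integrin ligands had 6 of 184 gained and 0 lost, 2 gained and 5 lost, and 17 gained and 7 lost in the same pairs, with 4 hPFE gains each at FBN1, a microfibril gene, and EDIL3, a vessel wall ligand, and 3 at FN1, the fibronectin gene. The 17 adhesion linkers and kinases had 2 of 219 gained and 2 lost, 2 gained and 1 lost, and 11 gained and 10 lost. In hDE the gained shares of the 3 lists, in the order given, were 3.19%, 3.26% and 0.913%, against 5.43% of all regions, and the lost shares 0%, 0% and 0.913%, against 1.15%. In hAFE the gained shares were 1.60%, 1.09% and 0.913%, against 2.05%, and the lost shares 1.06%, 2.72% and 0.457%, against 3.2%. In hPFE against hAFE the gained shares were 6.38%, 9.24% and 5.02%, against 8.45%, and the lost shares 6.91%, 3.80% and 4.57%, against 4.18%.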

How the data were processed

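The deposited peak lists of 7 ATAC-seq libraries, 1 per library and none pooled, held 298508 to 299374 peaks each. Per the submitters' processing notes the build was hg38 and DiffBind was used; aligner and peak caller are not stated in what was used here. The deposited lists carry in their names that reads were trimmed, sorted and freed of duplicates and mitochondrial sequence, that Tn5 sites were used, and that lists ended at p 0.01 or at 300000 peaks, which number the peak numbers reach in every library. A region listed without a peak can therefore hold a weaker signal, at heights below about 2.47 to 3.78 times the background.

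Each peak carries the deposited fold over a local background (a ratio), the deposited −log10 p and −log10 q, the summit offset (deposited as a position, no measurement) and a deposited score that is a display value and was not used. The −log10 p ranked regions within a library. Fold and −log10 p gave back a whole-number summit pileup in 100% of peaks within 0.001 of −log10 p. Read depth was not given as a number. The background, the pileup's expected value, measures depth from 2.11 to 7.94.

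Peaks of a library that overlapped by 1 bp were merged, as were strict regions across libraries. Genes were those of the RefSeq table and promoters those of the RefSeq promoter table, both of GRCh38.p14. The calls and the recovery were tested on simulated data. Python 3.11.15, numpy 2.4.6, pandas 2.3.3, scipy 1.17.1 and matplotlib 3.10.9 were used. Groups come from the sample titles, which do not tell if replicates come from separate cultures, so that the spread between them may be technical. No peak of a replicate repeated one of its partner.

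The members and lists were chosen with earlier results of these data known, and the scaling of heights was chosen after the data were seen. For each pair and direction the 5 members with the most called regions are named, ties by summit height (1 member is not reported here and stays in the totals), with the highest called region of each, and the starts of 10 genes are always given. ITGA11, ITGB3, LAMA5, LAMC3, ITGA5, ITGA8, ITGB2, ITGAM and the regions that missed a call at LAMB3, LAMA3 and LAMC1, and further regions of named genes, were chosen after their values were seen. Alternatives were other ranks, a height limit of 10 times background, a flank of 10 kb, a stricter overlap, other start windows and scalings, and each library left out.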

Additional observations from a re-analysis of the deposited data

How the results depend on the processing

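No paired analysis was possible because the results come from peak calls without a test and hPFE has 1 library. Of 64 recomputed shares of regions gained or lost, 41 stayed within the counting interval of the reported value and 23 moved. The share of all regions under the same setting follows each value after a comma. With 25000 strict regions per library the gained shares were 3.88%, 3.81% (hDE against hESC), 0.775%, 0.927% (hAFE against hDE), 1.94%, 5.34% (hPFE against hAFE) and 6.98%, 9.73% (hPFE against hESC), and the lost shares 2.71%, 1.84% (hPFE against hAFE) and 1.16%, 3.60% (hPFE against hESC). With 100000, the gained shares were 12.5%, 11.9% (hPFE against hAFE) and 17.2%, 16.2% (hPFE against hESC), and the lost shares 2.72%, 2.51% (hDE against hESC) and 6.58%, 8.89% (hPFE against hESC). With strict set by a height of at least 10 times background, the gained shares were 3.43%, 3.3% (hDE against hESC), 1.56%, 2.69% (hPFE against hAFE) and 4.68%, 4.71% (hPFE against hESC). Leaving out each library in turn relaxes a call, since fewer libraries must meet it. The gained share then ran from 6.25% to 9.68% (hDE against hESC) and from 3.83% to 5.44% (hAFE against hDE), and the lost share from 0.806% to 2.62% (hDE against hESC), from 3.83% to 5.85% (hAFE against hDE), from 7.26% to 8.06% (hPFE against hAFE) and from 6.85% to 7.86% (hPFE against hESC). The highest values came without hDE replicate 1 for gains and for losses of hAFE against hDE, without hAFE replicate 1 for gains of hAFE, without hESC replicate 2 for losses of hDE, and without hAFE replicate 2 or hESC replicate 1 for the losses of hPFE. The gained share kept its side of the share of all regions under 6 of 9 alternatives (hDE against hESC), 8 of 9 (hAFE against hDE), 6 of 7 (hPFE against hAFE) and 5 of 7 (hPFE against hESC), and the lost share under 7 of 9, 7 of 9, 3 of 7 and 7 of 7 in the same order. Counts of strict regions at the loci moved in 24 of 28 cases. Counts of gained or lost regions of named genes were within 1.5 times in 206 of 302 cases. Of 80 recomputed start ratios 53 lay within the replicate spread of the reported ratio, 23 moved further and 4 changed direction. That spread was the larger standard deviation of a stage with replicates, over the mean of the earlier stage. It is wide where replicates differ. Leaving out a replicate of the later stage always stays within that spread by arithmetic. Leaving out one of the earlier stage stays within it more easily where the ratio is low. LAMA5 in hPFE against hAFE thus counted as moved at 1.577 without hAFE replicate 1, against 1.585. ITGA1 counted as within at 0.5453 without hAFE replicate 2, against 0.3825. For replicates left out, these counts are therefore no measure of stability. The 53 include ITGA1 in hPFE against hAFE, 0.3825 with scaling and 0.1522 without, and LAMA2 in hAFE against hDE, 0.3219 and 0.5157. The 4 changes of direction were all for hPFE against hAFE without scaling: 0.665 at ITGA5, 0.671 at ITGB4, 0.593 at LAMA5 and 0.840 at LAMC3. The limit on peak number sets the depth at which a region counts as absent, which differs between libraries.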
